A study of Mus musculus with 15 samples.

Results

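Heat shock chaperones are proteins that bind unfolded chains of other proteins and help them fold, and their genes are among the fastest to respond to heat and other damage to proteins. A set of 10 such genes, chosen by symbol, was followed in liver RNA of mice given a Cre virus against floxed Gata4: Hspa1a, Hspa1b and Hspa8 (HSP70), Hsph1 (HSP110), Hsp90aa1 and Hsp90ab1 (HSP90), Dnaja1 and Dnajb1 (HSP40), Hspb1 (small heat shock protein) and Hspd1. All 10 were found, each on a single row, among the 24965 genes of the deposited table. The set is named for the cytosol, and Hspd1 is the exception, since its protein HSP60 is the chaperonin of the mitochondrial matrix.

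In the cell these proteins work in relay. HSP40 proteins deliver clients to HSP70, HSP110 resets HSP70 by exchanging its nucleotide, HSP90 receives part of the clients for their last steps of folding, and small heat shock proteins hold unfolded chains until HSP70 can take them. Transcription of the inducible members is driven by heat shock factor 1, which HSP70 and HSP90 hold inactive in unstressed cells. In the liver, HSP90 also keeps the glucocorticoid receptor ready to bind hormone.

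The comparison was of fasted Gata4LKO livers (4 mice) with fasted control livers (4 mice). All mice were male C57BL/6J of 9 weeks of age with both Gata4 alleles floxed (Gata4 fl/fl). Gata4LKO mice had received AAV8-Tbg-Cre, in which the Tbg promoter directs Cre to hepatocytes, and control mice an empty AAV8, so that Cre was present in the first group alone. The virus was given at 8 weeks of age and livers were collected 7 days afterwards, with 12 h of fasting just before. The model behind the deposited values also held 3 refed Gata4LKO and 4 refed control livers, from mice given a diet of 69% sucrose and 10% fat for 12 h after their fast. The table holds neither values per liver nor means per group, so the level of a gene is its mean over all 15 livers, and the difference is a log2 fold change of Gata4LKO minus control with the standard error (SE) of the authors' model. Nothing per liver could be inspected, including whether the groups overlap.

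Both of the following limits apply to every difference given here. The table does not name the groups it compares, and of 76 readings tried on genes with a single read, 2 gave its values: fasted Gata4LKO minus fasted control, and refed control minus fasted control. The first was taken from the table's name, which is that of the genotype, so the contrast is a reading and not a label. The targeted gene did not settle it. Gata4, a transcription factor of the GATA family, had a log2 fold change of 0.31 ± 0.15 (SE) by the authors' deposited table, which is higher and not lower in livers labelled Gata4LKO. That is 1.24-fold with a 95% interval of 1.02 to 1.52-fold, an unadjusted p of 0.0324 and an adjusted p of 0.361 in the authors' DESeq2 test, so that it was not called and its interval lies above no change. Which exons are floxed is not in the labels, and values are given per gene, so that loss of single exons was not visible.

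Sequences upstream of start sites of the genes came from a supplied set of windows at RefSeq start sites (GRCm38.p6), which held 7 of the 10. Hspa8, Hsp90aa1 and Hsp90ab1 had no window in that set and were not searched. The sequences are shown because they carry the letters that heat shock factors recognise. The motif searched was GAANNTTC or TTCNNGAA, each of which reads the same on the other strand, in the 250 bases before a start site. It was found for 6 of the 7 genes and not in either window of Dnajb1, while 14.5% of all 27025 genes in the same set held it in a window. The motif lay in 1 of 3 windows of Dnaja1 and in 1 of 2 windows of Hspd1. Capitals mark the motif in these stretches, written 5′ to 3′ on the strand of the gene. Stretches that overlap an exon of GENCODE M21 (Hsph1, Dnaja1 and Hspd1) were kept to 30 bases. In Dnaja1 and Hspd1 all 30 bases, and in Hsph1 25 of them, lie in annotated exons, which include exons of the gene itself. These 3 stretches are thus upstream of the RefSeq start site used, but wholly or mostly inside the gene as GENCODE draws it.
Hspa1a, chr17:34972228-34972287, minus strand: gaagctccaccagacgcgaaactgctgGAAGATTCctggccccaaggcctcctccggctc
Hspa1b, chr17:34959310-34959369, minus strand: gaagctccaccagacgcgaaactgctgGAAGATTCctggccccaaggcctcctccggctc
Hspb1, chr5:135887785-135887844, plus strand: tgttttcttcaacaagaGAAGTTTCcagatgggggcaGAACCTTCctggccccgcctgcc
Hsph1, chr5:149636352-149636381, minus strand: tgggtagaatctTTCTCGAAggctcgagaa
Dnaja1, chr4:40722332-40722361, plus strand: aaaaagcctctaGAAAATTCtacgaggctc
Hspd1, chr1:55088054-55088083, minus strand: cggggccTTCCGGAAGGTTCTAGAAcggac
In Hspd1 the motif occurs 3 times in overlap, and the same 3 matches lie upstream of the neighbouring gene Hspe1, which is read in the other direction from the shared promoter. The stretches printed for Hspa1a and Hspa1b are the same letter for letter, and over the 250 bases before the start site the pair differs at 3 positions. A match is a run of letters and was not tested for binding.

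The table shows first how unequal the levels of these genes were. Per kb of transcript (the longest principal transcript of GENCODE M21), Hsp90ab1 had the highest mean level, 7857 normalized counts, followed by Hspa8 with 6144 and Hspd1 with 3126. Hsp90aa1 stood at 1423, Dnaja1 at 489.5 and Hsph1 at 457.5 normalized counts per kb. The lowest levels were those of Hspb1 (130.3), Dnajb1 (119.4), Hspa1b (30.4) and Hspa1a (1.87 normalized counts per kb). The order therefore runs from the forms that unstressed cells make at all times, HSP90 beta (Hsp90ab1) and HSC70 (Hspa8), down to the strongly heat-inducible HSP70 pair. Per kb, Hspa8 was at 202.1 times the mean level of Hspa1b, and Hsp90ab1 at 5.52 times that of Hsp90aa1. The levels of Hspa1b and Hspa1a, and so the ratio of Hspa8 to Hspa1b, depend on how reads that fit both genes were counted. That is not known here. No spread between livers can be given for these levels, so the order of near neighbours, such as Dnaja1 and Hsph1 or Hspb1 and Dnajb1, is not settled by the table. Levels per kb also depend on the transcript length used, 5622 bases for Dnaja1 and 3802 for Hsph1. Before division by length, the means of these genes were 2752 and 1739 normalized counts.

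**Figure D1:**
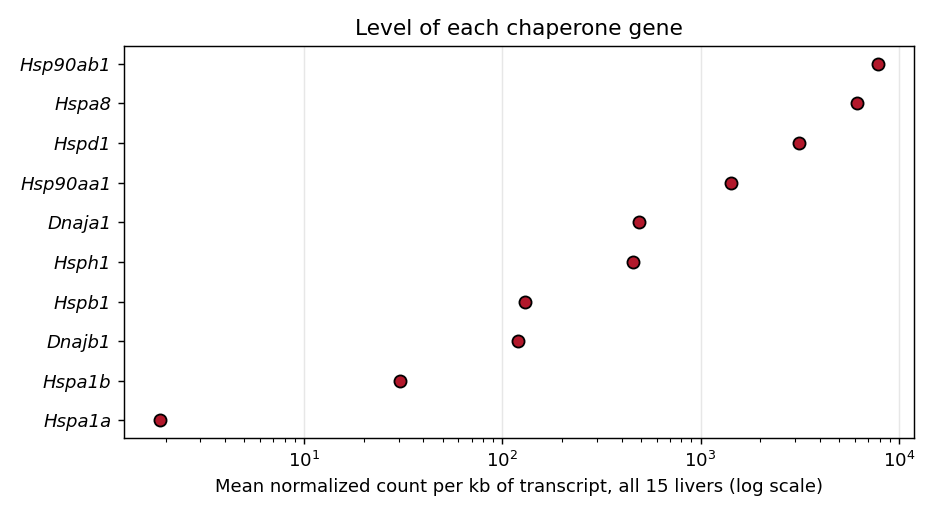
Mean level of each of the 10 chaperone genes over all 15 livers, in normalized counts per kb of transcript on a log axis. Points run from Hspa1a at 1.87 to Hsp90ab1 at 7857, and no error can be drawn because the table gives 1 mean per gene.

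None of the chaperone genes passed the test between livers labelled Gata4LKO and control livers. In the DESeq2 Wald test of the authors, adjusted by Benjamini-Hochberg, 0 of the 9 members with an adjusted p were called at an adjusted p under 0.05, against 292 of 13335 tested genes (2.19%). At an unadjusted p under 0.05, 2 of the 9 were found, both with a higher estimate in Gata4LKO livers (Hsp90ab1 and Hsph1), where 11.4% of tested genes had such a p in either direction and 5.17% had one with a higher estimate. The tenth member, Hspa1a, had a mean of 5.55 normalized counts, below the 8.20 of the lowest gene with an adjusted p, and was given none. Estimates were above 0 for 7 members and below 0 for 3, and the median of the 9 was 0.07 on the log2 scale, beside 0.01 for all tested genes.

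HSP90 is the chaperone of kinases and steroid receptors, and both of its cytosolic genes had estimates above 0. Hsp90ab1 (ENSMUSG00000023944, chromosome 17, 45567775 to 45573271), the constitutive form, had a log2 fold change of 0.16 ± 0.06 (SE) by the authors' deposited table. That is 1.12-fold, with a 95% interval of 1.03 to 1.22-fold, an unadjusted p of 0.00959 and an adjusted p of 0.194 in the authors' DESeq2 test. It was the smallest p among the members. Hsp90aa1 (ENSMUSG00000021270, chromosome 12, 110690605 to 110702728), the stress-inducible form, stood at 0.17 ± 0.12 (SE) by the authors' deposited table, with an adjusted p of 0.639 in the authors' DESeq2 test. The estimates of the pair lie close together, and the SE of Hsp90aa1 is nearly double that of Hsp90ab1.

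The HSP70 genes had estimates above 0 with wide intervals. Hspa8 (ENSMUSG00000015656, chromosome 9, 40800984 to 40810087) encodes HSC70, which folds newly made proteins and strips clathrin from vesicles. Its log2 fold change was 0.07 ± 0.28 (SE) by the authors' deposited table (adjusted p 0.972, authors' DESeq2 test), with a 95% interval of 0.722 to 1.53-fold. Hspa8 had more counts than 99.0% of tested genes, yet its SE was larger than that of 96.5% of the 2384 tested genes with a mean of at least 1000, and 4.39 times that of Hsp90ab1. Its wide interval thus stands beside high counts. Hspa1b (ENSMUSG00000090877, chromosome 17, 34956436 to 34959238), an inducible HSP70 gene, stood at 0.39 ± 0.60 (SE) by the authors' deposited table, with an adjusted p of 0.907 in the authors' DESeq2 test. Its interval ran from 0.577 to 2.97-fold. Hspa1a (ENSMUSG00000091971, chromosome 17, 34969190 to 34972156), its neighbour and near copy, stood at 0.08 ± 0.92 (SE) by the authors' deposited table, with an unadjusted p of 0.928 by the same test.

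Counts of the inducible pair are uncertain for another reason. The coding sequences of Hspa1a and Hspa1b match at 1919 of 1929 aligned positions (99.5%). Of all runs of 100 bases in the Hspa1b transcript, 49.9% also occur in the Hspa1a transcript, and of those in Hspa1a 47.1% occur in Hspa1b. For runs of 50 bases the shares are 62.3% and 58.8%. The sources used here do not say how reads that fit both genes were counted. The mean of Hspa1b, 85.2 normalized counts, was 15.3 times that of Hspa1a, and the pair together had 90.8.

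Hsph1 (ENSMUSG00000029657, chromosome 5, 149614287 to 149636376) encodes HSP110, the exchange factor of HSP70. In the authors' deposited table its log2 fold change was 0.38 ± 0.19 (SE), 1.30-fold with an interval of 1.01 to 1.69-fold. The unadjusted p was 0.0448 and the adjusted p 0.420 in the authors' DESeq2 test. Of the members with an adjusted p, only Hspa1b had a larger estimate in size, with an SE more than 3 times as wide.

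Among the members, the HSP40 genes and Hspb1 lay on the other side of 0. Dnaja1 (ENSMUSG00000028410, chromosome 4, 40722150 to 40737149), an HSP40 protein that hands clients to HSC70, stood at -0.19 ± 0.12 (SE) by the authors' deposited table, with an adjusted p of 0.561 in the authors' DESeq2 test. Dnajb1 (ENSMUSG00000005483, chromosome 8, 83608193 to 83612653), a heat-inducible partner of HSP70, stood at -0.07 ± 0.21 (SE) there, with an adjusted p of 0.959 by that test. Hspb1 (ENSMUSG00000004951, chromosome 5, 135887919 to 135889563), which encodes the small heat shock protein HSP25 of the mouse, had a log2 fold change of -0.33 ± 0.33 (SE) by the authors' deposited table and an adjusted p of 0.807 in the authors' DESeq2 test. For all 3 the interval includes 0.

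Hspd1 (ENSMUSG00000025980, chromosome 1, 55077835 to 55088243) had the estimate nearest to 0 of the 10, at 0.03 ± 0.08 (SE) by the authors' deposited table, with an adjusted p of 0.959 in the authors' DESeq2 test. Its interval, 0.917 to 1.13-fold, was the narrowest of the members on the fold scale after that of Hsp90ab1. Hspe1, which encodes the lid (HSP10) of the same chaperonin and shares the promoter, stood at -0.11 ± 0.10 (SE) by the authors' deposited table (adjusted p 0.800, authors' DESeq2 test). Processed pseudogenes can share reads with their parent. Only those with the symbol of a member followed by -ps were looked for, so pseudogenes under other names are not covered. In the table, Hspd1-ps3 had a mean of 37.6 and Hspd1-ps4 of 5.77 normalized counts, beside 7573 for Hspd1, and Dnaja1-ps had 0.40, beside 2752 for Dnaja1.

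**Figure D2:**
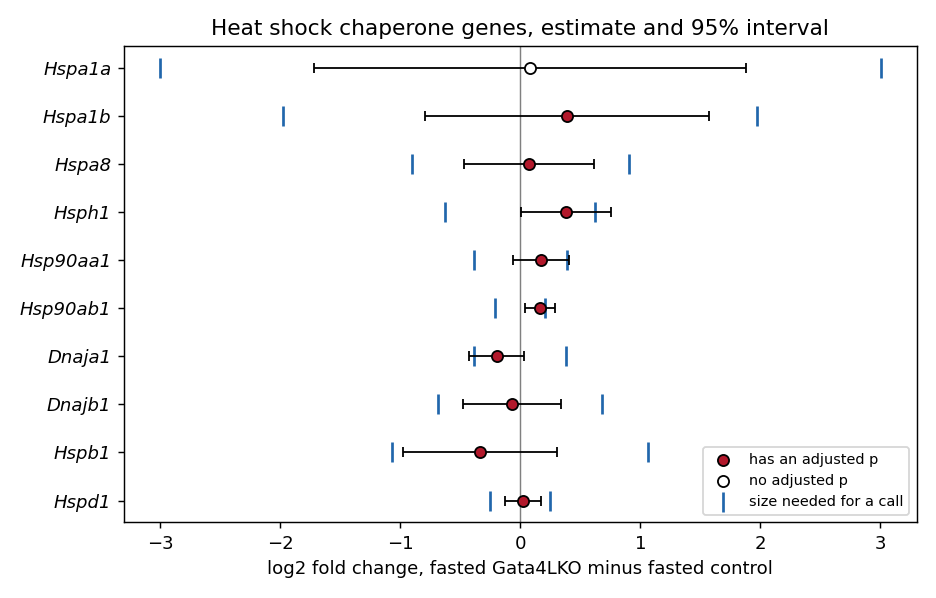
Log2 fold change of fasted Gata4LKO minus fasted control livers for each member (points), with its 95% interval (bars), from the authors' estimates and SE. Blue ticks mark the size an estimate needed, at that SE, to reach the largest p that was called (0.00108); no point lies beyond its ticks, and the interval includes 0 for 8 of the 10 members.

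The size of change that the test could call differed widely between members. At its SE, Hsp90ab1 would have needed a change of 1.15-fold in either direction to be called, Hspd1 1.19-fold, Dnaja1 1.30-fold and Hsp90aa1 1.31-fold. The size needed was 1.54-fold for Hsph1, 1.60-fold for Dnajb1, 1.87-fold for Hspa8, 2.09-fold for Hspb1 and 3.92-fold for Hspa1b. Read the other way, the 95% intervals of 5 members (Hsp90aa1, Hsp90ab1, Dnaja1, Dnajb1 and Hspd1) lie within a 1.5-fold change in both directions. Those of 8 of the 9 members with an adjusted p lie within a 2-fold change, Hspa1b being the exception. For Hspa1a, with 0.304 to 3.69-fold, even a 2-fold change in either direction lies inside the interval.

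**Figure D3:**
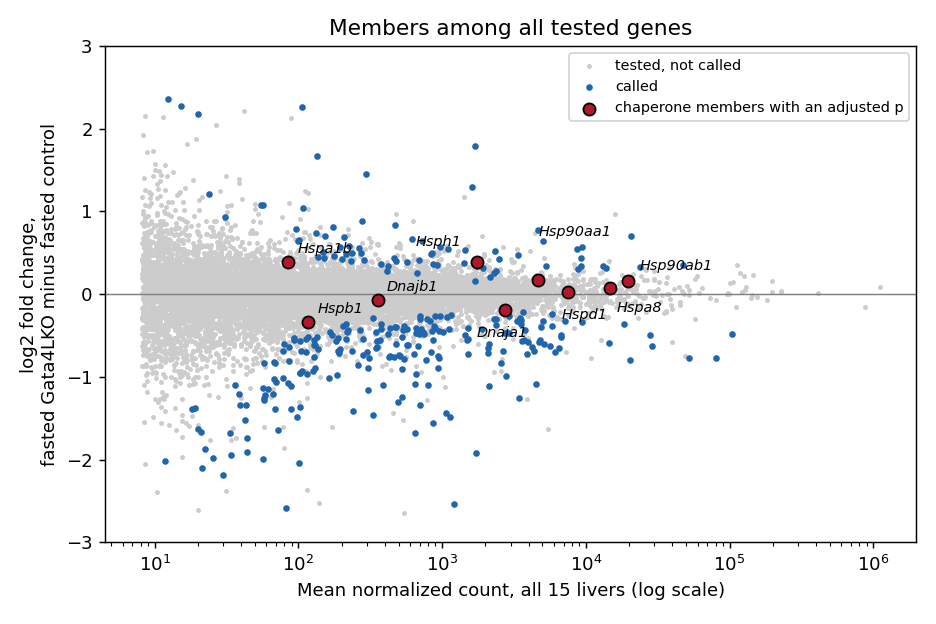
Log2 fold change of fasted Gata4LKO minus fasted control livers against mean normalized count over all 15 livers (log axis) for tested genes; 11 genes beyond a size of 3 lie outside the plot. The 9 members with an adjusted p (red) lie between -0.33 and 0.39, while called genes (blue) number 292.

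Genes that work with these chaperones were then counted by class. Of 109 further chaperone network genes, 100 were tested and 0 called in the authors' DESeq2 Wald test, beside 2.19% of all tested genes. At an unadjusted p under 0.05, 14 of the 100 had a higher and 1 a lower estimate in Gata4LKO livers, beside 5.17% and 6.21% of all tested genes. Estimates were above 0 for 76 of the 100, with a median of 0.06, beside 51.9% and a median of 0.01 over all tested genes. Among genes with a mean of at least 1000, 41 of 49 network genes had an estimate above 0, beside 57.3% of 2384 tested genes. The estimates are small and the genes share the same 15 livers, so these counts are a description and not a test of the network.

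HSP90 cochaperones had the most such genes of any class. None of 18 tested was called, beside 2.19% of all tested genes, and 16 of 18 estimates were above 0 with a median of 0.10. An unadjusted p under 0.05 in the authors' DESeq2 Wald test was found for 6, all 6 with a higher estimate. Such a p with a higher estimate was held by 5.17% of all tested genes, and by 8.5% of those with a mean of at least 1000. Stip1 (HOP), which links HSP70 to HSP90, stood at 0.27 ± 0.10 (SE, adjusted p 0.165) by the authors' deposited table. Cacybp, which binds the ubiquitin ligase partner SIAH1, stood at 0.24 ± 0.09 (SE, adjusted p 0.183), and Ahsa2, a relative of the HSP90 ATPase activator, at 0.16 ± 0.07 (SE, adjusted p 0.327) in the same deposited table. Cdc37l1 stood at 0.16 ± 0.08 (SE), Ahsa1, the ATPase activator itself, at 0.17 ± 0.08 (SE), and Ptges3 (p23), which closes the HSP90 cycle, at 0.20 ± 0.10 (SE) by the authors' deposited table.

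Of the heat shock factors, Hsf1, the main regulator of the heat response, stood at 0.05 ± 0.10 (SE, adjusted p 0.926) by the authors' deposited table. Hsf2, a related factor, had a log2 fold change of 0.42 ± 0.14 (SE) there, with an adjusted p of 0.0899 in the authors' DESeq2 test, the smallest of any chaperone network gene and short of the threshold. Of the 5 tested genes of this class 0 were called. Among 16 other genes that heat shock factor 1 can induce, 0 were called, 4 had an unadjusted p under 0.05 with a higher estimate, and the median was 0.09. This class shares Stip1, Cacybp and Ahsa1 with the cochaperones, and the remaining gene was Hspb8, a small heat shock protein, at 0.19 ± 0.09 (SE) by the authors' deposited table. Bag3, the partner of Hspb8 and a strongly inducible gene, stood at 0.07 ± 0.13 (SE) there. Of 7 tested genes of the HSP70 and HSP110 family beyond the members, 0 were called and 0 had an unadjusted p under 0.05 (authors' DESeq2). Of 4 tested genes listed as small heat shock proteins beyond Hspb1, 0 were called. They were Cryab, Hspb6, Hspb8 and Hspb11, and Hspb8 was the 1 at an unadjusted p under 0.05. Over all tested genes, 2.19% were called and 5.17% had such a p with a higher estimate in that DESeq2 test.

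HSP70 cochaperones gave 0 calls among 13 tested, beside 2.19% of all tested genes. At an unadjusted p under 0.05 in the authors' DESeq2 Wald test, 2 had a higher estimate, Ttc1 at 0.23 ± 0.08 and St13 (HIP), which stabilises HSP70 with its client, at 0.10 ± 0.04 (SE), and 1 a lower one, Sgtb at -0.51 ± 0.21 (SE), by the authors' deposited table. The cytosolic chaperonin, a ring that folds actin and tubulin, and its helper prefoldin gave 0 calls among 14 tested genes and 3 higher at an unadjusted p under 0.05: Cct8 at 0.14 ± 0.06, Cct5 at 0.13 ± 0.06 and Cct3 at 0.17 ± 0.08 (SE) by the authors' deposited table. Mitochondrial chaperones and proteases gave 0 calls among 11 and 1 higher gene at an unadjusted p under 0.05, Grpel2, an exchange factor of the mitochondrial HSP70, at 0.25 ± 0.12 (SE) by the authors' deposited table. The mitochondrial HSP70 gene itself, Hspa9, stood at 0.05 ± 0.06 (SE) there. By the same DESeq2 test, 0 of 16 ER chaperones and 0 of 8 other J-domain genes were called, and 0 of both classes had an unadjusted p under 0.05. Over all tested genes, such a p was held by 5.17% with a higher and 6.21% with a lower estimate. Of the 8 other J-domain genes, 6 had an estimate above 0 (median 0.05), beside 51.9% of all tested genes. Hspa5 (BiP), the HSP70 of the endoplasmic reticulum, stood at 0.12 ± 0.21 (SE) by the authors' deposited table.

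**Figure D4:**
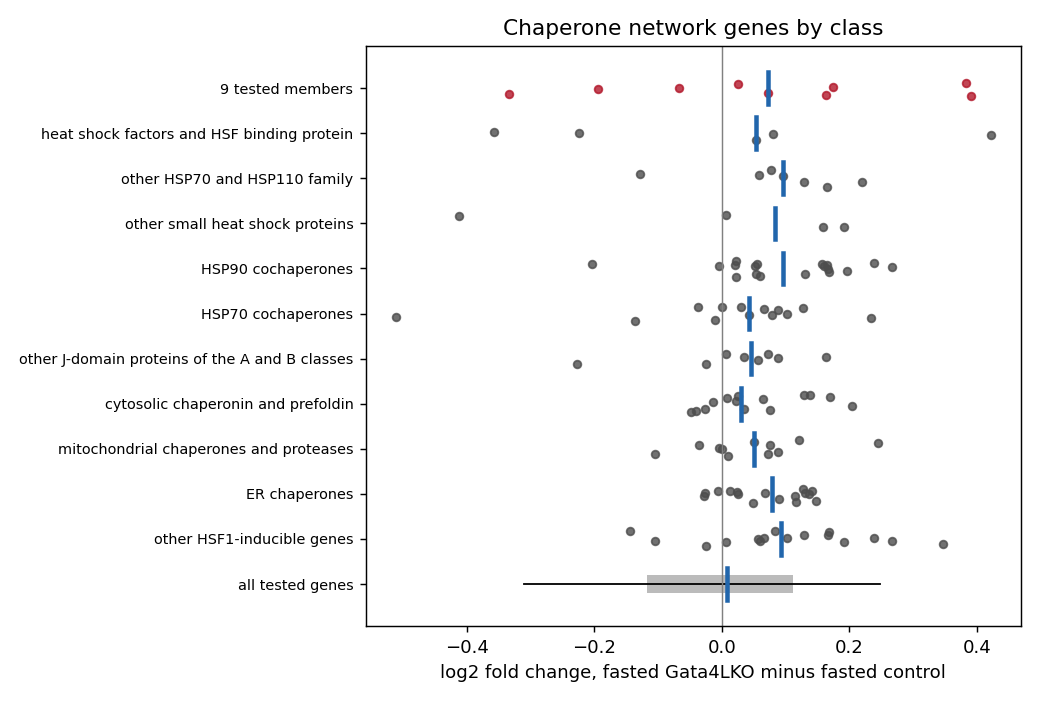
Log2 fold change of fasted Gata4LKO minus fasted control livers for tested genes (points), by class, with the median of each class as a blue bar; points are spread up and down for visibility. For all tested genes the grey box spans the middle of the distribution (25th to 75th percentile) and the line the 10th to 90th percentile; medians of the classes lie between 0.03 and 0.10, beside 0.01 for all tested genes.

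Other genes of the same livers that depend on temperature, time of day or handling are given beside these values. The cold-induced RNA-binding genes Rbm3 and Cirbp stood at -0.21 ± 0.10 and -0.17 ± 0.14 (SE) by the authors' deposited table, and 0 of the 2 were called in the authors' DESeq2 Wald test, with 1 at an unadjusted p under 0.05. Of 19 tested clock genes 3 were called, all lower in Gata4LKO livers, beside 2.19% of all tested genes called in either direction. They were Bhlhe40, Per2 and Per3 at -0.99 ± 0.15, -0.75 ± 0.17 and -0.89 ± 0.24 (SE) by the authors' deposited table. At an unadjusted p under 0.05 in the authors' DESeq2 Wald test, 7 of the 19 had a lower and 3 a higher estimate. The shares over all tested genes were 6.21% and 5.17%. Of 15 tested immediate early genes 0 were called in the authors' DESeq2 Wald test, and 2 had an unadjusted p under 0.05: Myc at 0.40 ± 0.14 and Fos, with a mean of 10.9 normalized counts, at 1.37 ± 0.57 (SE) by the authors' deposited table. Their part in the estimates of the chaperones was not tested.

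Markers of cell types were read as far as the table allows. All 8 hepatocyte markers were abundant, with means of at least 17184 normalized counts (Serpina1a), and 1 of them was called, Apoa1, at -0.48 ± 0.11 (SE) by the authors' deposited table. In bulk liver, fewer cells of a type and less RNA per cell cannot be told apart. Of the Kupffer cell, sinusoidal endothelial, stellate, cholangiocyte and lymphocyte markers, 0 of 8, 8, 8, 4 and 1 tested genes were called in the authors' DESeq2 Wald test, with 1, 2, 0, 0 and 1 at an unadjusted p under 0.05. Over all tested genes, the shares were 2.19% called and 11.4% at such a p. All 8 Kupffer cell markers had estimates below 0 (median -0.28), while 51.9% of all tested genes had one above 0. Estimates were above 0 for 5 of 8 endothelial, 6 of 8 stellate, 2 of 4 cholangiocyte and 0 of 1 lymphocyte markers. The means of all tested non-hepatocyte markers lay between 8.44 and 1478 normalized counts. Levels of these markers per group are not in the table, and their part in the chaperone estimates was not tested.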

How the data were processed

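Liver RNA-seq of 15 mice was represented by a table of results named for genotype, which the authors deposited. Per the labels' protocols, RNA came from frozen tissue by TRIzol and RNeasy, and the library kit (KAPA) keeps strand. FastQC, STAR 2.6.0c, mm10 and DESeq2 were used, per the submitters' processing notes; which program counted reads, with what strand option and annotation, is not given in the sources used here. Per the file headers, the mean is an expression signal, counts divided by size factors by the authors and averaged. Per the file headers, the effect and its standard error are on the log2 scale and the Wald score is their ratio. The deposited p-values are the authors', and the deposited adjusted p matches a Benjamini-Hochberg adjustment over 13335 genes. The other genes with a p, 11605 in number, had no adjusted one. Because only a results table was used, p-values set the difference against the spread between these samples in the authors' model. A cage, litter or day shared by a whole group would enter the difference and not that spread. In the sample titles each group carries a number of its own, whose meaning is not given. Anything tied to that number cannot be told apart from the group.

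The header does not name the groups compared. Genes with 1 read in 1 library gave size factors of 0.912 to 1.11 for the 15 libraries, and the model was rebuilt from them under 76 readings (model, first group, contrast). Only 2 matched the deposited estimates and errors to within 1e-06, and the closest other differed by 4.37e-05: fasted Gata4LKO minus fasted control, or refed control minus fasted control, each in an interaction model of all 15 libraries. The first was taken because the table is named for genotype. The fasting-induced genes Pck1 and Igfbp1 stood at 0.01 ± 0.82 and 0.27 ± 0.59 (SE, log2) by the authors' deposited table. With SEs this wide, these values cannot decide between the 2 readings. All directions rest on the choice of the first reading.

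A gene was called at a deposited adjusted p under 0.05. The table was not refitted; intervals (95%) are the estimate plus and minus the normal quantile times the SE. Adjustments were recomputed over other gene sets in Python 3.11.15 (numpy 2.4.6, pandas 2.3.3) and tested on simulated data. Coding sequences were aligned with Biopython 1.88. The members and the 19 gene lists were chosen with earlier results of these data known. The rule for named genes was the members, Gata4 and, of each list, every called gene and up to 4 of smallest p, and the text describes a selection of these; Hspe1, Hsf1, Bag3, Hspa9, Hspa5, Ptges3, Pck1, Igfbp1, the pseudogenes and Serpina1a were named outside that rule, after their values were seen. Of the listed symbols, 4 had no row. Transcript lengths and gene coordinates are of GENCODE M21 (GRCm38, the assembly of mm10), which may differ from the authors' annotation.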

Additional observations from a re-analysis of the deposited data

How the results depend on the processing

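No paired analysis was possible because values of single livers are not part of the table, and the fit could not be repeated without a liver or with another normalization or filter. The count of chaperone members called was 0 under each of 6 other settings: adjustment over all 24940 genes that have a p, over genes whose mean is 10 or more or 100 or more (which leaves out Hspa1a and, for 100, also Hspa1b), Holm adjustment, and thresholds of 0.1 and 0.01. The smallest adjusted p of a member, that of Hsp90ab1 from the authors' DESeq2 p-values, ranged from 0.170 with a minimum mean of 100 to 0.351 with all genes that have a p, and was 1 with Holm. Over all genes the count of 292 became 75 with Holm adjustment and 167 at a threshold of 0.01; these are fewer by construction. It was 223, 297, 251 and 434 under the other 4 settings. Subtracting the median log2 fold change of all tested genes (0.01) changed the sign of 0 of the 10 estimates. No symbol of a member stood on a second row, so a choice among rows gave no value. The mean of Hspa1a was 5.55 normalized counts; depth and the counting of reads shared with Hspa1b cannot be told apart there. The precision of Hspa8 is limited by its SE.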
